A study of Mus musculus with 16 samples.

Results

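The matrix genes of mouse liver tumors and of the liver tissue around them (peri-tumor) are described here in 16 RNA-seq libraries. They comprise the protein-coding genes whose symbol names a collagen chain, a laminin chain, a member of the lysyl oxidase family or a tissue inhibitor of metalloproteinases, with Fbn1, Fn1, Tnc, Dcn, Lum, Bgn, Postn, Thbs1, Sparc and Vcan. Of 74 such genes, 49 had at least 160 counts over the 16 libraries and were followed, of 54838 genes in the table, and each of the 49 passed the low-count filter of the tests. The lowest of them were Lox with 219 counts, Loxl1 with 275 and Timp1 with 391, and Vcan (129 counts) and Lamc3 (126) were among those just under the limit. All mice are given as HrasG12V, an activated form of the Ras oncogene, and the 4 groups are tumors of 4 mice treated with a decoction of traditional Chinese medicine (TCM), tumors of 4 control mice, peri-tumor tissue of the TCM mice and peri-tumor tissue of the control mice. Each mouse gave 1 library of each tissue, and the labels add 3 months to every sample without saying whether that is an age or a length of treatment. The protocol covers both Ras transgenes and DEN, a liver carcinogen, and whether these mice also received DEN is not stated, nor are the promoter of the transgene and the composition and dose of the decoction. What the study asks is by which route the decoction works on liver tumors.

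The extracellular matrix of the liver has 2 main forms. Basement membranes are thin sheets in which a network of type IV collagen and a network of laminin trimers, each of an alpha, a beta and a gamma chain, are joined by nidogens and perlecan. Fibrillar collagens (types I, III, V and XXVII here) instead form fibers, of which types I and III are the main ones of scar, with the activated stellate cell as their main known source in the liver. Normal liver sinusoids lack a continuous basement membrane, and the gain of one is known as capillarization. The genes were split into 16 basement membrane genes, 7 fibrillar collagens, 9 other collagens, 9 glycoproteins and proteoglycans, 5 cross-linking enzymes of the lysyl oxidase family and 3 protease inhibitors.

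Library totals ran from 13947483 to 16194224 counts. Levels are given as CPM, counts scaled to the library total by TMM factors, in the order of replicates 1 to 4 of a group, and genes are compared with each other only in FPKM, which also divides by gene length. Fold changes are log2 values with their standard error (SE), and adjusted p values come from edgeR's quasi-likelihood F test with Benjamini-Hochberg adjustment over 14865 tested genes, with calls made under 0.05. Replicates are different mice. On the second principal component of all tested genes (12.7% of the variance), TCM libraries lay between 21.5 and 38.2, control libraries of mice 1 to 3 between -57.0 and -19.2, and both libraries of control mouse 4 between these ranges, at -4.49 for its tumor and 3.85 for its peri-tumor tissue. Many matrix genes were high in that mouse, so its libraries are named beside the results. Markers of hepatocytes summed to 120804 to 188959 CPM in TCM tumors, 115968 to 158396 CPM in control tumors, 103670.2 to 157149 CPM in TCM peri-tumor and 82529 to 122473 CPM in control peri-tumor tissue. Alb was the largest part of each sum, with 6589933, 6370950, 5240316 and 4173344 counts over these groups in that order. The sums therefore mainly follow Alb, and more of the single markers were called lower than higher in tumors, as given further on. Every marker in the 9 lists looked at had counts in at least 1 library. The 8 mesothelial markers summed to the least, 1.30 to 10.9 CPM in TCM tumors, 1.04 to 2.69 CPM in control tumors, 1.06 to 4.03 CPM in TCM peri-tumor and 1.78 to 4.17 CPM in control peri-tumor tissue, and 3 of them were under 10 counts in every library.

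The promoter sequences of a few of these genes are shown first because the genes differ in how they are arranged and in which direction they moved. The type IV collagen genes lie in head-to-head pairs. In the annotation (GENCODE M21, build GRCm38), Col4a1 (ENSMUSG00000031502, chr8:11198423-11312826, minus strand) and Col4a2 (ENSMUSG00000031503, chr8:11312805-11449287, plus strand) overlap by 22 bases at their first exons, and Col4a4 (ENSMUSG00000067158, chr1:82448423-82586849, minus strand) and Col4a3 (ENSMUSG00000079465, chr1:82586921-82722059, plus strand) are separated by 71 bases. Lama5 (ENSMUSG00000015647, chr2:180176373-180225859, minus strand), the laminin chain with the lowest p value for tumor against peri-tumor tissue, Col3a1 (ENSMUSG00000026043, chr1:45311538-45349706, plus strand), a fibrillar chain that rose, and Col5a3 (ENSMUSG00000004098, chr9:20770050-20815067, minus strand), a fibrillar chain whose values ran the other way, are shown with the 250 bases before their start. Sequences are from RefSeq promoter windows of build GRCm38.p6, which held 32 of the 49 genes, are written 5′ to 3′ on the strand named, and have in capitals each match to GGGCGG (a GC box), CCAAT or TATAAA on either strand.
Col4a1 and Col4a2, chr8:11312805-11312826, plus strand: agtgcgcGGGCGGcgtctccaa
Col4a4 and Col4a3, chr1:82586850-82586920, minus strand: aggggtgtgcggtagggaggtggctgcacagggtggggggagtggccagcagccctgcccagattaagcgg
Lama5, chr2:180225860-180226109, minus strand: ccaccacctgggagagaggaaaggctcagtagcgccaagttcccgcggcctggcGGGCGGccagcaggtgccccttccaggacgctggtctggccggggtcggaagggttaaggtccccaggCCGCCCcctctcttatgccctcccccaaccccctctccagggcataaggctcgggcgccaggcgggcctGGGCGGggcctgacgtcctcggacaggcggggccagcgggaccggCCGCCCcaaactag
Col3a1, chr1:45311288-45311537, plus strand: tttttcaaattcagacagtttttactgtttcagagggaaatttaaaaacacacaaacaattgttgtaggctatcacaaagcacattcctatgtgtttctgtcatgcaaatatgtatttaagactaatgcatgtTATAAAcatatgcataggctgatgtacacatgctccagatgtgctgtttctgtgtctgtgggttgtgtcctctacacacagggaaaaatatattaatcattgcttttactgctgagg
Col5a3, chr9:20815068-20815317, minus strand: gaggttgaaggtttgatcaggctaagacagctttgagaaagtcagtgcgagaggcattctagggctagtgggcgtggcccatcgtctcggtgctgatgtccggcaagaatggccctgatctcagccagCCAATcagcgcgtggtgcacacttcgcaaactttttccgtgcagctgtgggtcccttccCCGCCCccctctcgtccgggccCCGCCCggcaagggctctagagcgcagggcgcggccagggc
The 22 shared bases of Col4a1 and Col4a2 held 1 GGGCGG. The Lama5 window held GGGCGG 4 times, in both directions. The Col5a3 window held GGGCGG 2 times, on the other strand, and CCAAT 1 time. The Col3a1 window held TATAAA 1 time and was poorer in G and C (35.2%) than that of Lama5 (72.4%). No matches overlapped, and the 71 bases between Col4a4 and Col4a3 held none of the 3 motifs. Over the 250 bases before the start in all 32851 windows of the table, 32.7% held GGGCGG, 33.8% held CCAAT and 12.4% held TATAAA in either direction. Over 1 window for each of the 32 matrix genes, 62.5%, 31.2% and 9.38% did. These matches describe the letters in the windows only.

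Most matrix genes were higher in tumors than in the peri-tumor tissue of the same treatment. In TCM mice 27 of 49 rose and 3 fell, where 17.3% of all tested genes were called higher and 15.6% lower (32.9% either way). In control mice 34 rose and 5 fell, where 22% were called higher and 21.2% lower (43.2% either way). The median log2 fold change of the 49 genes was 1.27 in TCM and 1.59 in control mice, against 0.00 in both over all tested genes. In 26 genes the rise was called in both treatments, and in Lama1 and Lama3 the fall was. Tumor and peri-tumor libraries did not overlap in 32 genes in TCM mice, 28 of them higher in tumors, where 33.9% of all tested genes did not overlap (17.3% higher and 16.6% lower). In control mice 35 genes did not overlap, 32 of them higher in tumors, where 38.9% of all tested genes did not (20% higher and 18.8% lower). Both comparisons of tumor against peri-tumor tissue use separate mice, and whether they differ is tested further on. In bulk tissue, more cells of a type and more RNA per cell cannot be told apart.

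**Figure D1:**
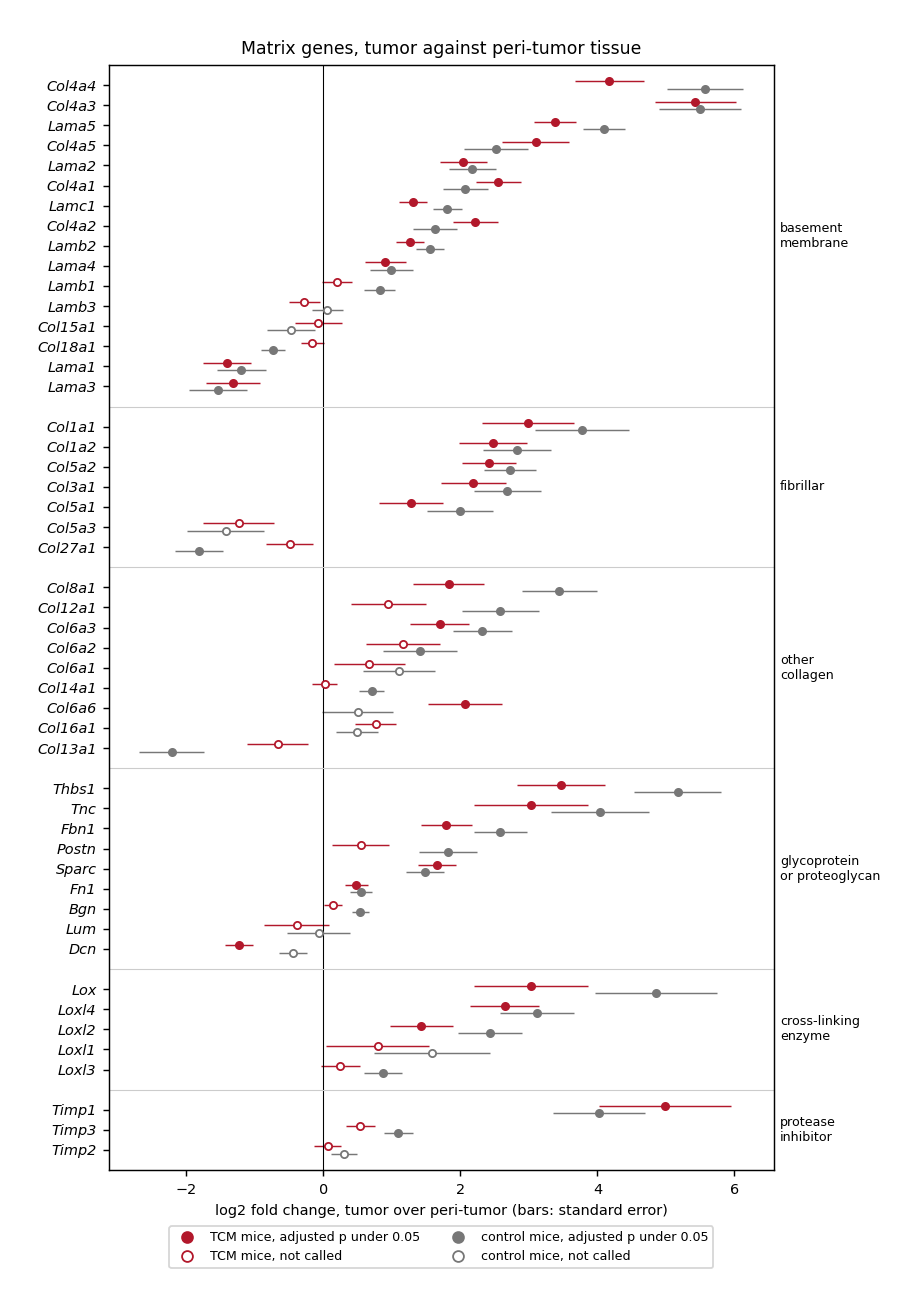
Log2 fold change of tumor over peri-tumor tissue for the 49 matrix genes (rows, grouped by class and ordered by the value in control mice), in TCM mice (red, upper point of each row) and control mice (gray, lower point). Points are edgeR estimates from 4 and 4 libraries, bars are standard errors and filled points have an adjusted p under 0.05. Most points lie right of 0, while Lama1, Lama3, Col15a1, Col18a1, Col5a3, Col27a1, Col13a1, Lum and Dcn lie left of it in both treatments.

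Of the 16 basement membrane genes, 10 rose and 2 fell in TCM mice, and 11 rose and 3 fell in control mice. The called shares were 75% in TCM mice, against 32.9% of all tested genes, and 87.5% in control mice, against 43.2%. All 5 measured chains of type IV collagen rose in both treatments. Col4a1 and Col4a2, which form the common trimer of blood vessels, were the more abundant. Col4a1 had 121, 145, 197 and 288 CPM in TCM tumors against 28.0, 34.6, 34.7 and 30.5 CPM in TCM peri-tumor tissue. Control tumors had 140.2, 106.5, 155 and 213 CPM against 21.8, 29.0, 30.7 and 64.5 CPM in control peri-tumor tissue. Every tumor library lay above every peri-tumor library of its treatment, and control mouse 4 was the highest of its group in both tissues. Its log2 fold change was 2.55 ± 0.33 (adjusted p = 3.67e-05) in TCM mice and 2.08 ± 0.33 (adjusted p = 0.000106) in control mice. Col4a2 had 71.6, 89.0, 111 and 181 CPM in TCM tumors, 85.1, 77.9, 92.2 and 129 CPM in control tumors, 20.03, 26.5, 23.4 and 27.1 CPM in TCM peri-tumor tissue and 17.1, 27.4, 24.9 and 54.5 CPM in control peri-tumor tissue, again without overlap. Its log2 fold change was 2.22 ± 0.33 (adjusted p = 0.000116) in TCM mice and 1.64 ± 0.32 (adjusted p = 0.000754) in control mice.

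Col4a3, Col4a4 and Col4a5 form the trimer of kidney glomeruli, whose loss causes Alport syndrome in humans. All 3 were low in peri-tumor tissue. Col4a3 had 33.1, 75.7, 74.9 and 51.7 CPM in TCM tumors against 0.397, 0.742, 3.55 and 0.895 CPM in TCM peri-tumor tissue. Control tumors had 69.2, 52.2, 58.0 and 49.3 CPM against 0.318, 0.302, 1.65 and 2.86 CPM in control peri-tumor tissue. TCM peri-tumor 3 and control peri-tumor 4 were the highest of the peri-tumor libraries, and both lay far under every tumor. Tumors exceeded peri-tumor tissue by 5.43 ± 0.59 (adjusted p = 8.81e-06) on the log2 scale in TCM mice, or 6.42 without TCM peri-tumor 3, and 5.50 ± 0.60 (adjusted p = 3.36e-06) in control mice, or 6.23 without control peri-tumor 4. Col4a4 had 7.78, 16.4, 13.8 and 8.42 CPM in TCM tumors, 14.1, 10.1, 14.5 and 11.6 CPM in control tumors, 0.331, 0.742, 1.06 and 0.448 CPM in TCM peri-tumor tissue and 0.446, 0, 0.573 and 0 CPM in control peri-tumor tissue, and 2 control peri-tumor libraries had no count. Col4a4 rose by 4.18 ± 0.50 (adjusted p = 1.70e-05) in TCM mice and by 5.57 ± 0.56 (adjusted p = 1.68e-06) in control mice, where it was 6.31 without control peri-tumor 3. Col4a5 ran from 4.33 to 16.01 CPM in TCM tumors and from 0.397 to 2.49 CPM in TCM peri-tumor tissue, and from 6.69 to 11.9 CPM in control tumors and from 0.828 to 2.23 CPM in control peri-tumor tissue. It rose by 3.10 ± 0.49 (adjusted p = 0.000183) in TCM mice, or 3.85 without TCM peri-tumor 3, and by 2.52 ± 0.46 (adjusted p = 0.00041) in control mice. Col4a6 had no counts in any library.

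The chains also made up other shares of the type IV collagen message. Summed over the 5 chains, the FPKM had a median of 40.1 in TCM tumors and 37.6 in control tumors, against 6.63 in TCM peri-tumor and 7.24 in control peri-tumor tissue. Col4a3 made up a median of 13.3% of that sum in TCM tumors (range 7.61 to 18.9%) and 15.7% in control tumors (9.61 to 18.1%), against 1.02% in TCM peri-tumor tissue (0.627 to 4.30%) and 1.19% in control peri-tumor tissue (0.389 to 2.15%). The tumor and peri-tumor ranges did not overlap. The FPKM ratio of Col4a1 to Col4a2, the head-to-head pair on chromosome 8, had medians of 1.13 in TCM tumors, 1.12 in control tumors, 0.919 in TCM peri-tumor and 0.822 in control peri-tumor tissue. These shares are descriptions and were not tested.

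Among the laminins, Lama5 moved the most. It encodes the alpha5 chain, which with a beta chain and gamma1 forms laminins of epithelial and vessel basement membranes. Lama5 had 45.9, 31.6, 32.2 and 76.5 CPM in TCM tumors against 3.11, 5.26, 4.46 and 4.99 CPM in TCM peri-tumor tissue. Control tumors had 55.5, 91.6, 85.2 and 65.7 CPM against 3.38, 4.23, 3.63 and 6.21 CPM in control peri-tumor tissue. All tumors lay far above all peri-tumor libraries. Lama5 rose by 3.38 ± 0.30 (adjusted p = 1.44e-06) on the log2 scale in TCM mice and by 4.10 ± 0.31 (adjusted p = 1.46e-07) in control mice. Lamc1, the gamma1 chain that most laminins share, had 33.1, 37.8, 38.7 and 61.5 CPM in TCM tumors, 38.6, 43.5, 47.6 and 58.4 CPM in control tumors, 12.7, 18.4, 17.6 and 20.1 CPM in TCM peri-tumor tissue and 10.8, 15.5, 11.5 and 15.8 CPM in control peri-tumor tissue. It rose by 1.31 ± 0.21 (adjusted p = 0.00018) in TCM mice and by 1.81 ± 0.21 (adjusted p = 6.17e-06) in control mice. Lama4, an alpha chain of endothelial laminin, had 7.23, 7.69, 8.94 and 16.3 CPM in TCM tumors against 4.63, 5.06, 5.59 and 6.08 CPM in TCM peri-tumor tissue. Control tumors had 8.75, 6.58, 10.2 and 11.3 CPM against 1.97, 5.44, 5.47 and 5.58 CPM in control peri-tumor tissue. Control peri-tumor 1 was low, and the groups did not overlap. Lama4 rose by 0.91 ± 0.31 (adjusted p = 0.0315) in TCM mice and by 0.996 ± 0.31 (adjusted p = 0.0157) in control mice. In TCM mice that call was lost without TCM tumor 4 (log2 fold change 0.58) or without TCM peri-tumor 1, 2 or 3, with adjusted p up to 0.138.

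Of the other laminin chains, Lama2 (alpha2) rose by 2.04 ± 0.34 (adjusted p = 0.000309) in TCM mice and 2.18 ± 0.34 (adjusted p = 0.000108) in control mice, and Lamb2 (beta2) by 1.27 ± 0.20 (adjusted p = 0.000212) in TCM mice and 1.56 ± 0.20 (adjusted p = 1.85e-05) in control mice. Lama2 ran over 2.67 to 5.27 CPM in TCM tumors, 3.11 to 4.78 CPM in control tumors, 0.810 to 1.15 CPM in TCM peri-tumor and 0.382 to 1.46 CPM in control peri-tumor tissue, and Lamb2 over 9.78 to 13.5 CPM in TCM tumors, 12.4 to 18.1 CPM in control tumors, 4.10 to 5.67 CPM in TCM peri-tumor and 3.06 to 6.42 CPM in control peri-tumor tissue. Lamb1 (beta1) had 8.57, 5.09, 8.01 and 11.2 CPM in TCM tumors, 6.91, 6.16, 7.46 and 9.13 CPM in control tumors, 7.54, 7.15, 7.33 and 6.52 CPM in TCM peri-tumor tissue and 3.25, 4.54, 3.37 and 5.65 CPM in control peri-tumor tissue. It had a value of 0.20 ± 0.22 (adjusted p = 0.517) in TCM mice and rose in control mice, 0.82 ± 0.23 (adjusted p = 0.00789). Lama1 and Lama3 fell. Lama3, the alpha chain of an epithelial anchoring laminin, had 2.43, 1.99, 2.02 and 1.92 CPM in TCM tumors against 7.80, 4.79, 5.29 and 3.01 CPM in TCM peri-tumor tissue. Control tumors had 1.20, 0.554, 1.29 and 1.67 CPM against 1.53, 2.48, 3.24 and 6.63 CPM in control peri-tumor tissue. TCM tumors lay under all TCM peri-tumor libraries, while control tumor 4 exceeded control peri-tumor 1. Its fall was -1.32 ± 0.40 (adjusted p = 0.0184) in TCM mice, lost without TCM peri-tumor 1 (adjusted p = 0.0699), and -1.54 ± 0.42 (adjusted p = 0.00772) in control mice. Lama1, an alpha chain best known from embryos, ran over 1.18 to 1.88 CPM in TCM tumors, 0.507 to 2.03 CPM in control tumors, 2.80 to 5.05 CPM in TCM peri-tumor and 2.10 to 4.26 CPM in control peri-tumor tissue, without overlap within a treatment. It had log2 fold changes of -1.41 ± 0.35 (adjusted p = 0.00538) in TCM mice and -1.19 ± 0.36 (adjusted p = 0.0128) in control mice, both called. Lamb3, the beta partner of Lama3, had 2.67, 1.92, 2.52 and 3.01 CPM in TCM tumors, 1.97, 3.12, 1.61 and 2.09 CPM in control tumors, 3.57, 3.17, 2.42 and 3.07 CPM in TCM peri-tumor tissue and 1.78, 2.36, 1.97 and 2.30 CPM in control peri-tumor tissue, and its log2 fold changes were -0.27 ± 0.22 (adjusted p = 0.376) in TCM mice and 0.06 ± 0.23 (adjusted p = 0.863) in control mice.

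The laminin alpha chains stood in another proportion in tumors. Lama5 made up a median of 73.9% of the summed FPKM of Lama1 to Lama5 in TCM tumors (69.4 to 78.2%) and 84.0% in control tumors (79.6 to 89.7%), against 23.6% in TCM peri-tumor tissue (14.4 to 24.3%) and 26.3% in control peri-tumor tissue (23.0 to 35.1%). Lama1 and Lama3 together with Lama4 held most of the rest in peri-tumor tissue, where Lama3 had a median of 28.4% in TCM and 21.1% in control mice. In tumors Lama3 had 4.87% in TCM and 1.77% in control mice. Among beta chains Lamb2 had the highest median share in each group, 60.9% in TCM tumors, 71.2% in control tumors, 41.6% in TCM peri-tumor and 52.2% in control peri-tumor tissue.

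**Figure D2:**
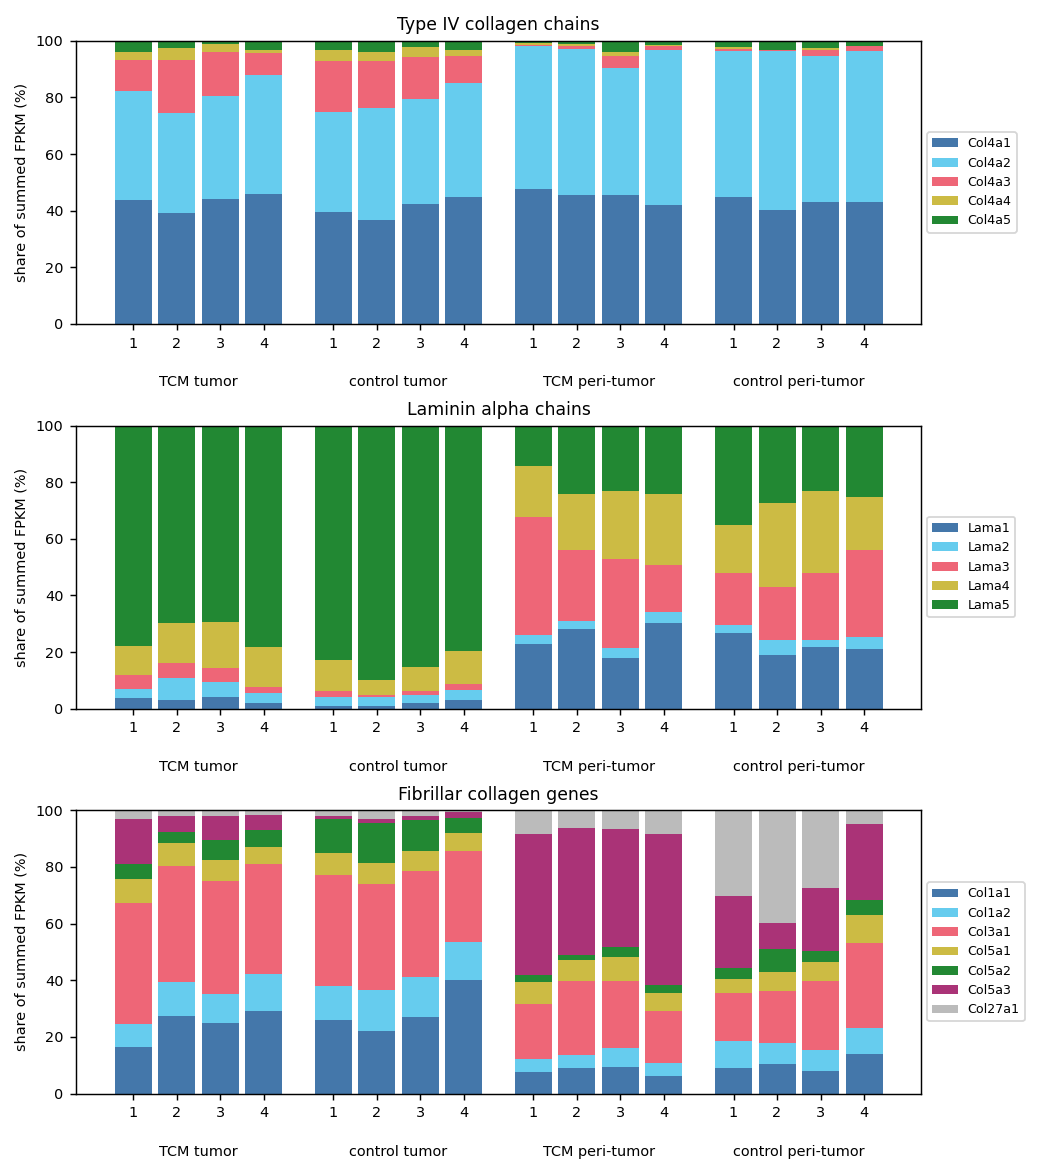
Shares of the summed FPKM held by each type IV collagen chain (top), laminin alpha chain (middle) and fibrillar collagen gene (bottom) in the 16 libraries, with replicate numbers under the bars. Col4a3 widens in every tumor, Lama5 holds between 69.4 and 89.7% of the alpha chains in tumors, and Col5a3 holds 41.6 to 53.3% of the fibrillar sum in TCM peri-tumor tissue.

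The multiplexin collagens, basement membrane collagens whose C-terminal pieces can be released as separate fragments, did not rise as type IV did. Col18a1, which hepatocytes are known to express, was with Fn1 the most abundant matrix gene per length in all 4 groups, at 93.4 ± 10.2 FPKM in TCM tumors, 63.6 ± 5.19 in control tumors, 96.2 ± 21.1 in TCM peri-tumor and 97.8 ± 19.8 in control peri-tumor tissue (mean ± SD, n = 4 each). It had 723, 757, 1001 and 768 CPM in TCM tumors against 874, 1072, 729 and 953 CPM in TCM peri-tumor tissue. Control tumors had 585, 511, 559 and 463 CPM against 754, 765, 809 and 1187 CPM in control peri-tumor tissue. TCM tumor 3 and control peri-tumor 4 were the high libraries of their groups. Col18a1 had a value of -0.16 ± 0.17 (adjusted p = 0.509) in TCM mice and fell in control mice, -0.73 ± 0.17 (adjusted p = 0.00261). Col15a1 ranged from 11.7 to 32.1 CPM in TCM tumors and 15.9 to 23.5 CPM in TCM peri-tumor tissue, and from 8.62 to 22.1 CPM in control tumors and 11.7 to 27.5 CPM in control peri-tumor tissue. Its log2 fold changes were -0.07 ± 0.34 (adjusted p = 0.896) in TCM mice and -0.47 ± 0.35 (adjusted p = 0.299) in control mice, and with the mouse as a block its fall in control mice was called (-0.49, adjusted p = 0.0347).

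**Figure D3:**
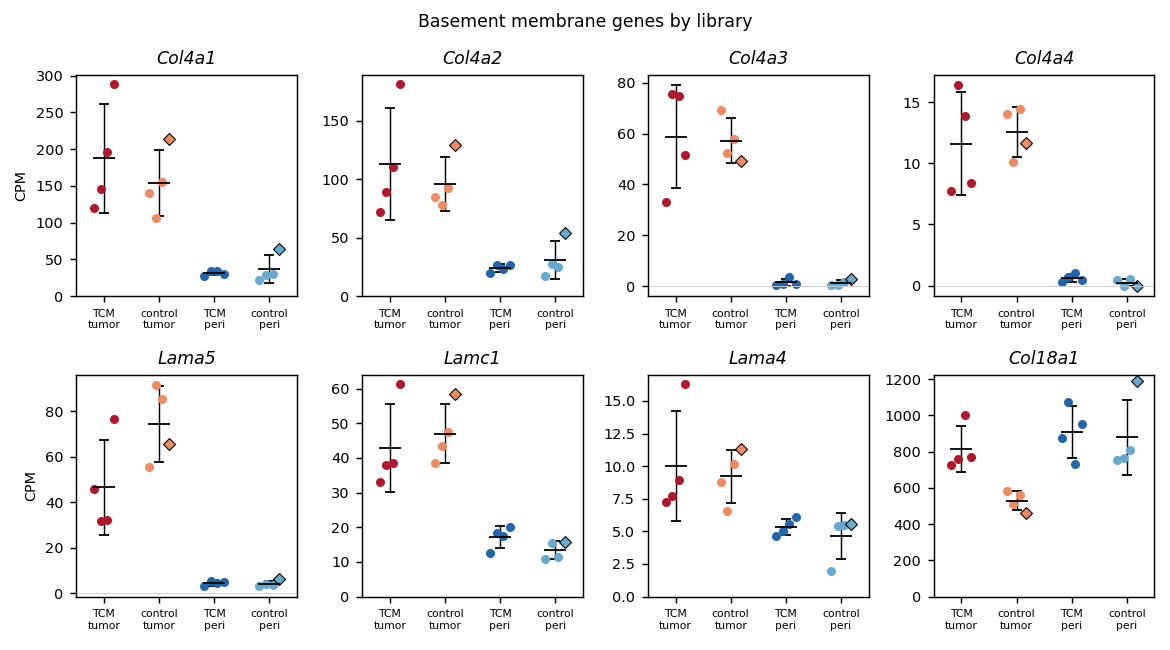
CPM of 8 basement membrane genes in each library (points), with the group mean and SD (black), for TCM tumor, control tumor, TCM peri-tumor and control peri-tumor tissue. Diamonds mark the libraries of control mouse 4. Tumors lie above peri-tumor tissue for 7 of the genes, with no overlap within a treatment, and Col18a1 is lower in control tumors, at 463 to 585 CPM, than in any other group.

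Markers of capillary and large vessel endothelium mostly rose beside the basement membrane genes and those of sinusoidal endothelium did not, and their part in those results was not tested. Of 12 markers of capillary and large vessel endothelium (11 tested), 7 rose and 2 fell in TCM mice, and 6 rose and 1 fell in control mice. These are 81.8% in TCM mice against 32.9% of all tested genes, and 63.6% in control mice against 43.2%. Cd34 rose by 2.66 ± 0.33 (adjusted p = 2.45e-05) in TCM mice and by 2.90 ± 0.35 (adjusted p = 8.35e-06) in control mice, and Esm1 by 3.93 ± 0.55 (adjusted p = 6.69e-05) in TCM mice, or 4.74 without TCM peri-tumor 3, and by 3.83 ± 0.54 (adjusted p = 4.30e-05) in control mice. They summed to 287 to 429.7 CPM in TCM tumors, 243 to 348 CPM in control tumors, 165 to 200.4 CPM in TCM peri-tumor and 153 to 245 CPM in control peri-tumor tissue. Of 11 markers of sinusoidal endothelium, 1 fell in TCM mice and 5 fell in control mice, and none rose. These are 9.09% in TCM mice, under the share of all tested genes, and 45.5% in control mice, near it. Clec4g fell in both, -0.90 ± 0.30 (adjusted p = 0.0293) in TCM mice and -1.73 ± 0.30 (adjusted p = 0.000262) in control mice. In TCM mice that call was lost with the mouse as a block (-0.99, adjusted p = 0.0566) and without TCM tumor 2 or TCM peri-tumor 2 or 4 (adjusted p up to 0.0890). Those markers summed to 203 to 476 CPM in TCM tumors, 321 to 398 CPM in control tumors, 329 to 477 CPM in TCM peri-tumor and 359.9 to 687 CPM in control peri-tumor tissue.

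Of the 7 fibrillar collagens, 5 rose in each treatment and 1 fell in control mice. The called shares were 71.4% in TCM mice, against 32.9% of all tested genes, and 85.7% in control mice, against 43.2%. Col1a1 and Col1a2 encode type I collagen, the main fiber of scar. Col1a1 had 13.9, 29.5, 30.2 and 49.3 CPM in TCM tumors, 22.8, 14.1, 29.1 and 140.1 CPM in control tumors, 3.24, 5.20, 4.08 and 3.01 CPM in TCM peri-tumor tissue and 1.78, 3.51, 2.35 and 7.46 CPM in control peri-tumor tissue. Control tumor 4 stood far above the other control tumors, and control peri-tumor 4 was also the highest of its group, yet tumors and peri-tumor tissue did not overlap. In log2 terms Col1a1 rose by 2.98 ± 0.67 (adjusted p = 0.00285) in TCM mice and by 3.78 ± 0.68 (adjusted p = 0.000353) in control mice, or 2.54 without control tumor 4. Col1a2 had 16.4, 30.0, 28.9 and 51.7 CPM in TCM tumors against 4.69, 6.34, 6.88 and 4.92 CPM in TCM peri-tumor tissue. Control tumors had 24.9, 21.2, 35.8 and 109.5 CPM against 4.52, 5.75, 5.34 and 11.4 CPM in control peri-tumor tissue. It rose by 2.48 ± 0.50 (adjusted p = 0.00135) in TCM mice and by 2.83 ± 0.50 (adjusted p = 0.000296) in control mice, or 2.01 without control tumor 4. Col3a1, type III collagen, had 56.0, 68.0, 74.9 and 102.03 CPM in TCM tumors, 53.5, 36.6, 62.6 and 174 CPM in control tumors, 13.1, 23.2, 16.1 and 13.5 CPM in TCM peri-tumor tissue and 5.22, 9.44, 11.5 and 24.8 CPM in control peri-tumor tissue. It rose by 2.19 ± 0.48 (adjusted p = 0.00234) in TCM mice and by 2.69 ± 0.49 (adjusted p = 0.000365) in control mice, or 1.99 without control tumor 4. Per length Col3a1 was the leading fibrillar gene in TCM tumors, with a median share of 40.4% of the fibrillar FPKM, and in control tumors, with 37.4%.

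Type V collagen, which starts and limits the width of type I fibers, gave 2 directions. Col5a2 had 6.87, 6.02, 12.6 and 14.3 CPM in TCM tumors against 1.59, 1.48, 2.42 and 1.92 CPM in TCM peri-tumor tissue. Control tumors had 15.2, 13.1, 17.4 and 27.0 CPM against 1.21, 3.99, 1.72 and 4.05 CPM in control peri-tumor tissue. Every tumor lay above the peri-tumor libraries of its treatment, and the log2 fold change was 2.42 ± 0.40 (adjusted p = 0.000258) in TCM mice and 2.73 ± 0.38 (adjusted p = 3.91e-05) in control mice. Col5a1 ran from 8.81 to 13.3 CPM in TCM tumors and from 3.84 to 5.47 CPM in TCM peri-tumor tissue, and from 5.82 to 28.3 CPM in control tumors and from 1.21 to 6.77 CPM in control peri-tumor tissue. It rose by 1.28 ± 0.47 (adjusted p = 0.0461) in TCM mice and by 1.996 ± 0.48 (adjusted p = 0.00315) in control mice. In control mice the value was 1.28 without control tumor 4 and 2.60 without control peri-tumor 4. In TCM mice the call was lost without any 1 of the 8 TCM libraries, and also without control tumor 3 or control peri-tumor 2 or 3, with adjusted p up to 0.102.

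Col5a3 and Col27a1 were the exceptions. Col5a3 had 13.3, 6.20, 10.1 and 9.03 CPM in TCM tumors, 1.01, 1.04, 1.41 and 7.16 CPM in control tumors, 21.6, 25.6, 18.2 and 25.3 CPM in TCM peri-tumor tissue and 5.03, 2.96, 6.68 and 14.4 CPM in control peri-tumor tissue. Each TCM tumor lay under all TCM peri-tumor libraries, and in control mice tumor and peri-tumor tissue of mouse 4 were the highest of their groups. Tumor over peri-tumor tissue gave -1.23 ± 0.52 (adjusted p = 0.0809) in TCM mice and -1.42 ± 0.56 (adjusted p = 0.0524) in control mice. With the mouse as a block both falls were called (-1.26 in TCM mice, adjusted p = 0.0038, and -1.69 in control mice, adjusted p = 0.00118), and without control tumor 4 they were too (-1.23, adjusted p = 0.014, and -2.65, adjusted p = 0.000427). Col27a1, a fibrillar collagen known from cartilage, had 6.38, 4.90, 6.42 and 7.05 CPM in TCM tumors against 8.92, 8.77, 7.03 and 9.91 CPM in TCM peri-tumor tissue. Control tumors had 4.37, 4.503, 5.53 and 6.45 CPM against 14.8, 32.3, 20.2 and 6.07 CPM in control peri-tumor tissue. Control peri-tumor libraries 1 to 3 were high and control peri-tumor 4 was lower than control tumor 4. Col27a1 had a value of -0.49 ± 0.34 (adjusted p = 0.301) in TCM mice and fell in control mice, -1.81 ± 0.34 (adjusted p = 0.000541). The summed fibrillar FPKM had a median of 16.3 in TCM tumors (range 13.2 to 25.1) and 14.9 in control tumors (9.44 to 56.4), against 6.27 in TCM peri-tumor (5.28 to 8.12) and 4.67 in control peri-tumor tissue (2.80 to 7.28). Within that sum Col5a3 had a median share of 7.07% in TCM tumors and 1.48% in control tumors, against 47.2% in TCM peri-tumor and 23.7% in control peri-tumor tissue.

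**Figure D4:**
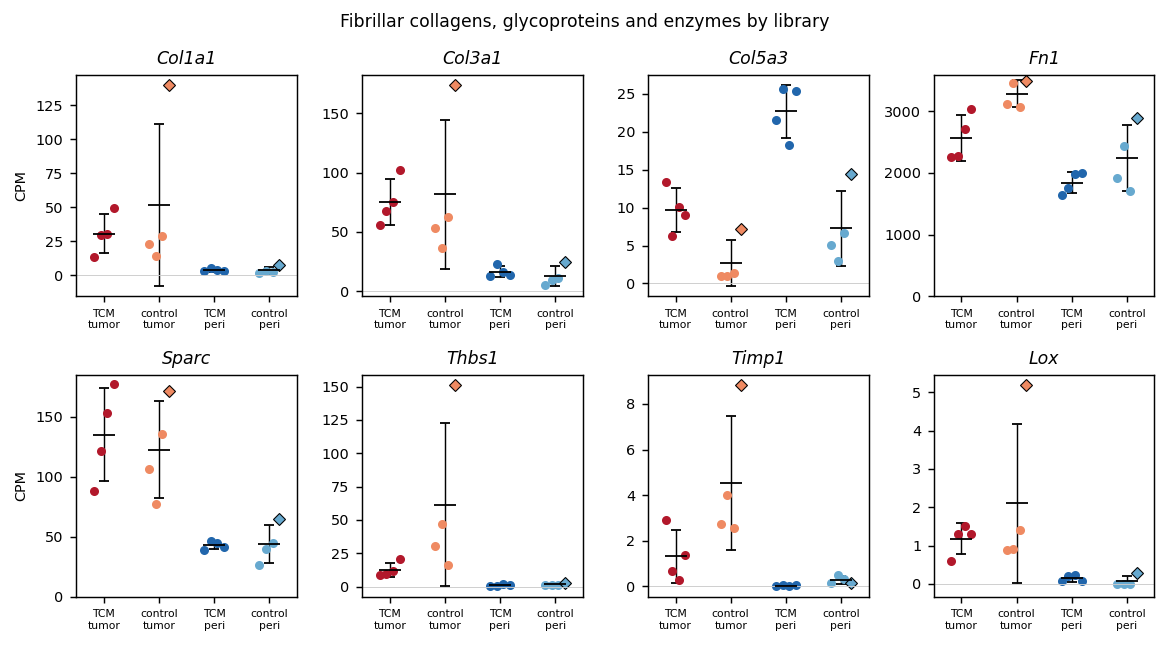
CPM of 3 fibrillar collagens, 3 glycoproteins, Timp1 and Lox in each library (points), with the group mean and SD (black), for TCM tumor, control tumor, TCM peri-tumor and control peri-tumor tissue. Diamonds mark control mouse 4, whose tumor was at 140.1 CPM of Col1a1 and 151 CPM of Thbs1, above all other libraries, and Col5a3 is highest in TCM peri-tumor tissue.

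Markers of collagen-producing cells gave mixed results beside the fibrillar genes, and their part in those results was not tested. Of 16 markers of myofibroblasts and fibroblasts (13 tested), 4 rose and 1 fell in TCM mice, 38.5% against 32.9% of all tested genes, and 3 rose and 1 fell in control mice, 30.8% against 43.2%. Acta2, smooth muscle actin, rose by 2.19 ± 0.61 (adjusted p = 0.0115) in TCM mice and by 3.40 ± 0.62 (adjusted p = 0.000407) in control mice, or 2.38 without control tumor 4. The summed markers ran over 111 to 211 CPM in TCM tumors, 123 to 211 CPM in control tumors, 78.4 to 98.4 CPM in TCM peri-tumor and 105.2 to 241 CPM in control peri-tumor tissue. In control mice the sums of tumor and peri-tumor tissue overlapped. Gas6 was the largest part of these sums, with 4733 counts over control tumors and 7410 over control peri-tumor tissue. No other marker of the list exceeded 1435 counts over control tumors or 468 over control peri-tumor tissue. The overlap of the sums therefore does not describe the other markers. Of 15 markers of quiescent stellate cells, a list that holds Dcn, 3 rose and 8 fell in TCM mice (73.3%), and 3 rose and 6 fell in control mice (60%), so that most called ones were lower in tumors. Reln rose by 1.48 ± 0.33 (adjusted p = 0.00297) in TCM mice and by 2.11 ± 0.34 (adjusted p = 0.000138) in control mice, or 2.69 without control peri-tumor 4, and Vipr1 fell, -1.71 ± 0.20 (adjusted p = 1.80e-05) in TCM mice and -2.05 ± 0.21 (adjusted p = 2.03e-06) in control mice. Without Dcn, the other 14 markers summed to 316 to 352 CPM in TCM tumors and 344 to 409 CPM in control tumors. They summed to 274 to 306 CPM in TCM peri-tumor and 172 to 289.9 CPM in control peri-tumor tissue. Dcn, at 29.4 to 61.4 CPM in TCM tumors and 91.4 to 111 CPM in TCM peri-tumor tissue, was left out. The sums therefore do not describe the whole list.

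Among the 9 other collagens, 3 rose in TCM mice and none fell, and 5 rose and 1 fell in control mice. These are 33.3% in TCM mice, near the 32.9% of all tested genes, and 66.7% in control mice, against 43.2%. Col6a3, a chain of the beaded-filament type VI collagen, had 8.20, 11.9, 12.9 and 18.5 CPM in TCM tumors, 8.49, 8.52, 15.4 and 37.9 CPM in control tumors, 3.504, 4.05, 3.85 and 4.41 CPM in TCM peri-tumor tissue and 1.97, 3.57, 3.69 and 4.88 CPM in control peri-tumor tissue. It rose by 1.70 ± 0.43 (adjusted p = 0.00621) in TCM mice and by 2.32 ± 0.43 (adjusted p = 0.000469) in control mice, or 1.60 without control tumor 4. Col8a1, of the network-forming type VIII collagen of vessel walls, had 2.61, 3.10, 3.53 and 3.15 CPM in TCM tumors against 0.859, 1.15, 0.529 and 0.895 CPM in TCM peri-tumor tissue. Control tumors had 3.61, 4.85, 3.47 and 9.01 CPM against 0.255, 0, 0.636 and 1.05 CPM in control peri-tumor tissue. It rose by 1.83 ± 0.52 (adjusted p = 0.0124) in TCM mice and by 3.45 ± 0.55 (adjusted p = 0.000124) in control mice, or 4.12 without control peri-tumor 4. Col6a6 had 4.68, 4.96, 13.2 and 6.91 CPM in TCM tumors, 8.11, 4.09, 4.24 and 6.39 CPM in control tumors, 1.26, 1.48, 1.66 and 2.62 CPM in TCM peri-tumor tissue and 1.78, 1.45, 3.05 and 9.98 CPM in control peri-tumor tissue. Control peri-tumor 4 exceeded all control tumors. Col6a6 rose in TCM mice, 2.07 ± 0.55 (adjusted p = 0.00818), and had a value of 0.50 ± 0.51 (adjusted p = 0.458) in control mice, called without control peri-tumor 4 (1.44, adjusted p = 0.0104).

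Col12a1 and Col14a1 encode collagens that bind the surface of fibrils. Col12a1 had 2.31, 2.30, 1.66 and 4.996 CPM in TCM tumors against 1.59, 2.02, 0.831 and 1.34 CPM in TCM peri-tumor tissue. Control tumors had 2.66, 3.60, 5.27 and 12.9 CPM against 0.701, 0.665, 0.509 and 2.23 CPM in control peri-tumor tissue. Its value in TCM mice was 0.95 ± 0.55 (adjusted p = 0.201). It rose in control mice, 2.58 ± 0.56 (adjusted p = 0.00148), or 1.90 without control tumor 4 and 3.27 without control peri-tumor 4. Col14a1 had 41.1, 42.4, 52.7 and 35.8 CPM in TCM tumors, 49.2, 48.3, 49.8 and 49.4 CPM in control tumors, 37.4, 43.6, 47.8 and 40.6 CPM in TCM peri-tumor tissue and 17.4, 30.6, 34.2 and 38.1 CPM in control peri-tumor tissue. Its 4 control tumors lay within 48.3 to 49.8 CPM, above all control peri-tumor libraries, and its log2 fold change was 0.02 ± 0.18 (adjusted p = 0.94) in TCM mice and 0.71 ± 0.18 (adjusted p = 0.00493) in control mice. Col13a1, a transmembrane collagen, had 3.10, 2.67, 3.39 and 0.547 CPM in TCM tumors against 3.97, 2.83, 3.55 and 5.05 CPM in TCM peri-tumor tissue. Control tumors had 1.14, 1.25, 0.321 and 1.55 CPM against 2.74, 5.99, 5.73 and 5.44 CPM in control peri-tumor tissue. It had a value of -0.66 ± 0.44 (adjusted p = 0.273) in TCM mice and fell in control mice, -2.21 ± 0.47 (adjusted p = 0.00134).

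The other 3 genes of this class varied more among libraries or moved less. Col6a1 had 6.14, 5.58, 3.89 and 8.76 CPM in TCM tumors, 3.30, 1.52, 3.28 and 14.9 CPM in control tumors, 3.57, 4.72, 3.40 and 3.58 CPM in TCM peri-tumor tissue and 1.85, 2.18, 2.42 and 4.33 CPM in control peri-tumor tissue, with control tumor 4 apart from its group. Its log2 fold changes were 0.67 ± 0.52 (adjusted p = 0.348) in TCM mice and 1.11 ± 0.53 (adjusted p = 0.104) in control mice, called without control tumor 2 (1.40, adjusted p = 0.0292) and at 0.00 without control tumor 4. Col6a2 ran over 2.67 to 9.92 CPM in TCM tumors, 1.80 to 12.1 CPM in control tumors, 1.59 to 2.97 CPM in TCM peri-tumor and 1.15 to 2.72 CPM in control peri-tumor tissue. It had a value of 1.17 ± 0.54 (adjusted p = 0.108) in TCM mice and rose in control mice, 1.41 ± 0.54 (adjusted p = 0.0456). The call in control mice was lost with the mouse as a block (1.17, adjusted p = 0.0561), without control tumor 4 (0.59) or 3, without control peri-tumor 1, 2 or 3, and without TCM tumor 1 or 2 or any TCM peri-tumor library, with adjusted p up to 0.327. Col16a1 had 4.13, 2.42, 2.96 and 4.93 CPM in TCM tumors against 2.25, 2.09, 1.96 and 2.17 CPM in TCM peri-tumor tissue. Control tumors had 1.84, 1.66, 2.31 and 4.24 CPM against 1.27, 1.69, 1.78 and 2.44 CPM in control peri-tumor tissue. Its values were 0.76 ± 0.30 (adjusted p = 0.065) in TCM mice, called with the mouse as a block (0.72, adjusted p = 0.0334), and 0.49 ± 0.31 (adjusted p = 0.217) in control mice.

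Of the 9 glycoproteins and proteoglycans, 5 rose and 1 fell in TCM mice, and 7 rose in control mice. The called shares were 66.7% in TCM mice, against 32.9% of all tested genes, and 77.8% in control mice, against 43.2%. Fn1, fibronectin, which hepatocytes secrete into plasma, was the first or second matrix gene per length in each group. It had 2257, 2282, 2721 and 3031 CPM in TCM tumors, 3115, 3456, 3072 and 3491 CPM in control tumors, 1639.6, 1764, 1979.7 and 1994 CPM in TCM peri-tumor tissue and 1915, 2432, 1714 and 2899 CPM in control peri-tumor tissue. Tumors lay above the peri-tumor libraries of their treatment by a small step, 0.48 ± 0.17 (adjusted p = 0.0363) in TCM mice and 0.55 ± 0.17 (adjusted p = 0.0138) in control mice. The call was lost without control peri-tumor 3 in control mice (adjusted p = 0.0501), and without TCM tumor 3 or 4 or TCM peri-tumor 1 or 2 in TCM mice (adjusted p up to 0.1). Sparc, a collagen-binding protein of remodeling tissue, had 87.7, 121, 153 and 177 CPM in TCM tumors against 38.7, 46.4, 45.0 and 41.1 CPM in TCM peri-tumor tissue. Control tumors had 107, 77.0, 135 and 171 CPM against 26.6, 39.5, 44.5 and 64.8 CPM in control peri-tumor tissue. It rose by 1.66 ± 0.28 (adjusted p = 0.000303) in TCM mice and by 1.48 ± 0.27 (adjusted p = 0.000442) in control mice, with no overlap. Fbn1, the fibrillin of elastic microfibrils, had 7.23, 10.7, 11.0 and 10.6 CPM in TCM tumors, 8.94, 7.27, 8.36 and 19.9 CPM in control tumors, 3.17, 3.24, 2.27 and 2.62 CPM in TCM peri-tumor tissue and 0.637, 1.75, 1.78 and 3.28 CPM in control peri-tumor tissue. It rose by 1.80 ± 0.37 (adjusted p = 0.00164) in TCM mice and by 2.58 ± 0.39 (adjusted p = 6.95e-05) in control mice, and 20.1% of its exon bases are shared with Gm9913 on the other strand.

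The matricellular proteins Thbs1 and Tnc, which act on cells rather than as fibers, had the largest rises of this class. Thbs1, thrombospondin-1, which can activate TGF-beta, had 8.81, 9.62, 11.7 and 20.6 CPM in TCM tumors against 0.793, 0.810, 2.04 and 0.959 CPM in TCM peri-tumor tissue. Control tumors had 30.6, 47.1, 16.6 and 151 CPM against 1.08, 1.63, 1.46 and 2.65 CPM in control peri-tumor tissue. Tumors did not overlap with peri-tumor tissue in either treatment, and control tumor 4 was the highest library. Thbs1 rose by 3.47 ± 0.64 (adjusted p = 0.000695) in TCM mice and by 5.17 ± 0.63 (adjusted p = 1.10e-05) in control mice, or 4.19 without control tumor 4. Tnc, tenascin-C, had 3.34, 2.36, 2.89 and 1.71 CPM in TCM tumors, 5.58, 4.85, 3.41 and 34.0 CPM in control tumors, 0, 0.540, 0.529 and 0.192 CPM in TCM peri-tumor tissue and 0.828, 0.786, 0.509 and 0.767 CPM in control peri-tumor tissue. It rose by 3.03 ± 0.83 (adjusted p = 0.0104) in TCM mice and by 4.04 ± 0.72 (adjusted p = 0.000315) in control mice, or 2.65 without control tumor 4. Postn, periostin, ran over 7.05 to 9.67 CPM in TCM tumors, 6.93 to 32.0 CPM in control tumors, 4.03 to 7.18 CPM in TCM peri-tumor and 2.04 to 6.23 CPM in control peri-tumor tissue. It had a value of 0.55 ± 0.42 (adjusted p = 0.343) in TCM mice and rose in control mice, 1.82 ± 0.42 (adjusted p = 0.00246), or 1.13 without control tumor 4.

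The small leucine-rich proteoglycans bind fibrillar collagens, and their 3 genes gave mixed results. Dcn, decorin, had 61.4, 46.4, 29.4 and 33.3 CPM in TCM tumors against 91.4, 106.3, 111 and 91.4 CPM in TCM peri-tumor tissue. Control tumors had 66.1, 75.5, 67.6 and 45.5 CPM against 67.5, 96.1, 99.2 and 82.5 CPM in control peri-tumor tissue. Each TCM tumor lay under all TCM peri-tumor libraries, while the control groups overlapped. Dcn fell in TCM mice, -1.23 ± 0.21 (adjusted p = 0.000386), and had a value of -0.44 ± 0.21 (adjusted p = 0.102) in control mice, called without TCM tumor 1 (-0.47, adjusted p = 0.0404). Bgn, biglycan, had 52.0, 55.5, 56.0 and 69.7 CPM in TCM tumors, 60.8, 63.4, 84.3 and 79.3 CPM in control tumors, 48.9, 53.9, 59.5 and 49.1 CPM in TCM peri-tumor tissue and 43.2, 55.6, 46.4 and 52.2 CPM in control peri-tumor tissue. It had a value of 0.14 ± 0.13 (adjusted p = 0.432) in TCM mice and rose in control mice, 0.54 ± 0.13 (adjusted p = 0.00308). Lum, lumican, was at 0.793 to 3.22 CPM in TCM tumors, 1.33 to 5.47 CPM in control tumors, 2.51 to 3.26 CPM in TCM peri-tumor and 1.53 to 6.14 CPM in control peri-tumor tissue, with log2 fold changes of -0.38 ± 0.47 (adjusted p = 0.573) in TCM mice and -0.06 ± 0.46 (adjusted p = 0.93) in control mice.

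The lysyl oxidases cross-link collagen and elastin fibers. Of these 5 genes, 3 rose in TCM mice and 4 in control mice. The called shares were 60% in TCM mice, against 32.9% of all tested genes, and 80% in control mice, against 43.2%. Lox was rare, with 0.608, 1.30, 1.51 and 1.30 CPM in TCM tumors against 0.0661, 0.202, 0.227 and 0.0640 CPM in TCM peri-tumor tissue. Control tumors had 0.888, 0.901, 1.41 and 5.19 CPM against 0, 0, 0 and 0.279 CPM in control peri-tumor tissue. Control tumor 4 was the highest, and 3 control peri-tumor libraries had no count. Lox rose by 3.03 ± 0.83 (adjusted p = 0.0105) in TCM mice and by 4.86 ± 0.89 (adjusted p = 0.000412) in control mice, or 3.87 without control tumor 4. Without control peri-tumor 4 the control peri-tumor libraries were all at 0, and no fold is given. Loxl4 had 28.7, 9.93, 23.1 and 14.8 CPM in TCM tumors, 7.67, 10.9, 16.3 and 11.9 CPM in control tumors, 5.49, 1.82, 3.25 and 1.66 CPM in TCM peri-tumor tissue and 0.318, 0.847, 1.08 and 3.21 CPM in control peri-tumor tissue. It rose by 2.65 ± 0.50 (adjusted p = 0.000865) in TCM mice and by 3.12 ± 0.54 (adjusted p = 0.000259) in control mice, or 3.95 without control peri-tumor 4.

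Loxl2, which acts on type IV collagen, had 8.81, 5.65, 10.6 and 16.01 CPM in TCM tumors against 2.71, 4.45, 4.31 and 3.71 CPM in TCM peri-tumor tissue. Control tumors had 10.4, 10.7, 13.5 and 34.9 CPM against 1.08, 3.39, 3.05 and 5.44 CPM in control peri-tumor tissue. It rose by 1.43 ± 0.46 (adjusted p = 0.0245) in TCM mice and by 2.43 ± 0.47 (adjusted p = 0.000586) in control mice, or 1.82 without control tumor 4. In TCM mice the call was lost without TCM tumor 4 or TCM peri-tumor 1 or 4, with adjusted p up to 0.0861. Loxl2 is uncertain as a gene, since 45.8% of its 50-base words also occur in other genes and Gm27177 overlaps it on the other strand. Loxl3 had 1.46, 1.30, 2.16 and 2.81 CPM in TCM tumors, 2.98, 2.84, 2.64 and 4.24 CPM in control tumors, 1.45, 1.55, 1.81 and 1.66 CPM in TCM peri-tumor tissue and 1.97, 1.51, 1.15 and 2.30 CPM in control peri-tumor tissue. It had a value of 0.25 ± 0.28 (adjusted p = 0.536) in TCM mice and rose in control mice, 0.87 ± 0.27 (adjusted p = 0.0167). That call was lost without control tumor 4, at 0.69, or without control peri-tumor 2 or 3, with an adjusted p up to 0.0665. Exons of Htra2 on the other strand cover 11.6% of its exon bases. Loxl1 had 1.15, 0.372, 0.938 and 4.93 CPM in TCM tumors against 1.06, 0.810, 1.21 and 1.15 CPM in TCM peri-tumor tissue. Control tumors had 0.380, 1.32, 1.03 and 2.21 CPM against 0, 0.544, 0.127 and 0.977 CPM in control peri-tumor tissue. Its values were 0.80 ± 0.75 (adjusted p = 0.452) in TCM mice, or -0.35 without TCM tumor 4, and 1.59 ± 0.84 (adjusted p = 0.141) in control mice, called there with the mouse as a block (1.78, adjusted p = 0.0399).

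The tissue inhibitors of metalloproteinases block the enzymes that cut matrix. Timp1, which is induced in injured liver, had 2.92, 0.682, 0.289 and 1.37 CPM in TCM tumors, 2.73, 4.02, 2.57 and 8.84 CPM in control tumors, 0, 0.0675, 0 and 0.0640 CPM in TCM peri-tumor tissue and 0.127, 0.484, 0.318 and 0.140 CPM in control peri-tumor tissue. Tumors and peri-tumor tissue did not overlap within a treatment, while TCM tumor 3 lay under control peri-tumor 2 and 3. Control tumor 4 was again the highest library. Timp1 rose in TCM mice with a fitted value of 4.99 ± 0.97 (adjusted p = 0.001), or 4.24 without TCM tumor 1. TCM tumors held 83 counts in all against 2 in TCM peri-tumor tissue, a summed ratio of 40.0 after scaling, with a 95% counting interval of 10.7 to 336. It also rose in control mice, 4.03 ± 0.67 (adjusted p = 0.000176). Timp3, which binds the matrix itself, had 42.3, 69.9, 51.7 and 64.8 CPM in TCM tumors against 27.7, 41.7, 41.6 and 45.9 CPM in TCM peri-tumor tissue. Control tumors had 69.0, 62.6, 82.1 and 71.8 CPM against 22.2, 38.8, 44.2 and 28.6 CPM in control peri-tumor tissue. Its value in TCM mice, 0.54 ± 0.21 (adjusted p = 0.0594), was called with the mouse as a block (0.54, adjusted p = 0.0171), and it rose in control mice, 1.09 ± 0.21 (adjusted p = 0.00065). Exons of Syn3 on the other strand cover 21.3% of the exon bases of Timp3. Timp2 had 14.5, 13.7, 12.3 and 15.4 CPM in TCM tumors, 14.8, 16.6, 17.4 and 24.0 CPM in control tumors, 13.6, 17.1, 10.5 and 12.3 CPM in TCM peri-tumor tissue and 11.7, 19.7, 15.3 and 12.3 CPM in control peri-tumor tissue, with log2 fold changes of 0.06 ± 0.19 (adjusted p = 0.833) in TCM mice and 0.30 ± 0.19 (adjusted p = 0.217) in control mice.

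Few matrix genes were called between TCM and control mice. In peri-tumor tissue 2 rose and 1 fell with TCM, where 6.71% of all tested genes were called higher and 7.35% lower (14.1% either way), and the median log2 fold change of the 49 genes was 0.17 against 0.00 over all tested genes. In tumors 1 rose and 2 fell, where 4.55% were called higher and 2.72% lower (7.28% either way), and the median was -0.14 against 0.00. The share of matrix genes called was 6.12% in each tissue. At an unadjusted p under 0.05 there were 7 genes in peri-tumor tissue, 4 of them higher, and 13 in tumors, 10 of them lower. The share of all tested genes under that unadjusted limit was not counted, so these counts cannot be judged against it. TCM and control libraries did not overlap in 4 genes in peri-tumor tissue, 3 of them higher with TCM, where 18% of all tested genes did not overlap (9.12% higher and 8.86% lower). In tumors they did not overlap in 4 genes, 2 of them higher with TCM, where 15.9% did not (8.83% higher and 7.04% lower).

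**Figure D5:**
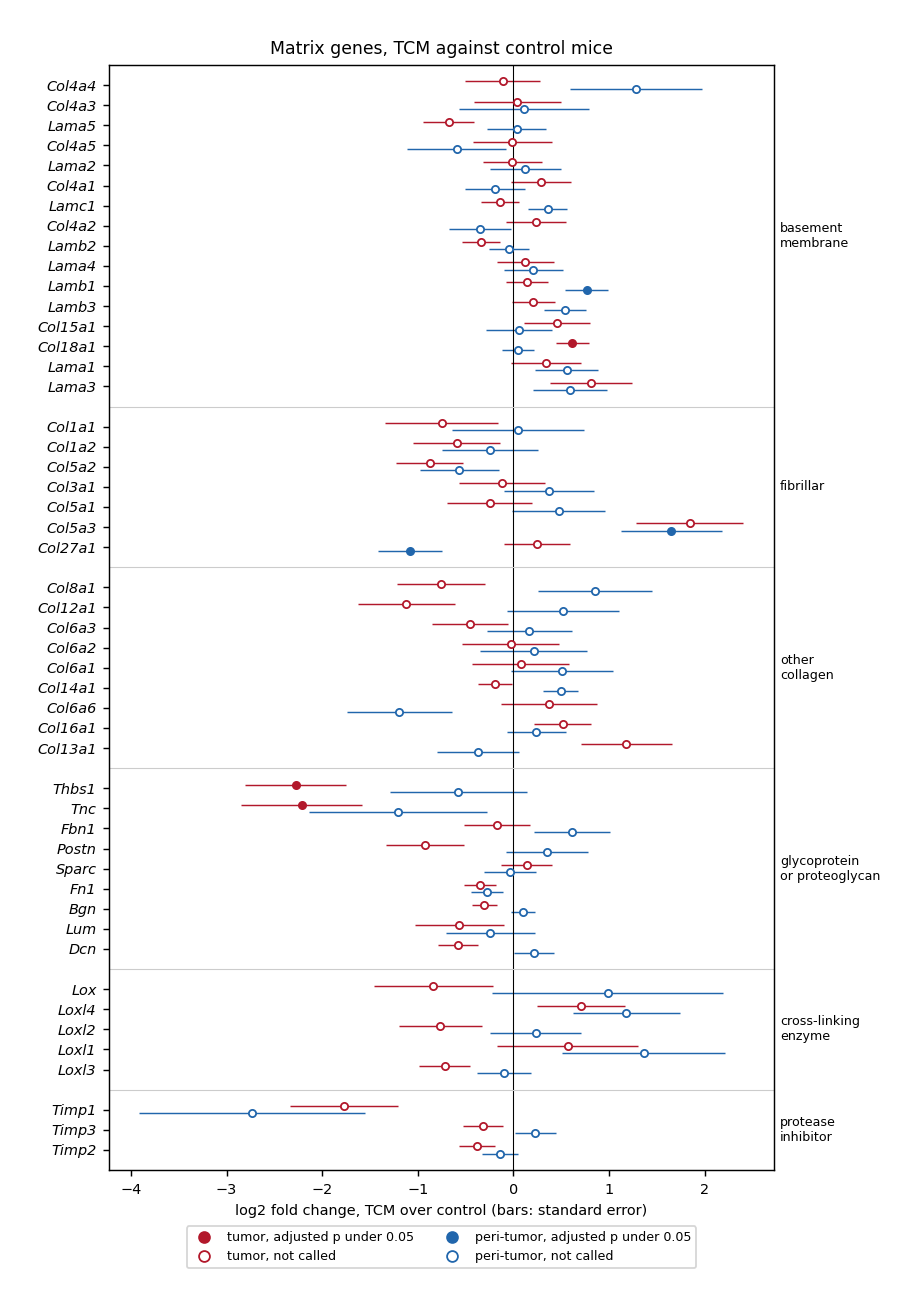
Log2 fold change of TCM over control mice for the 49 matrix genes (rows, in the order of the plot of tumor against peri-tumor tissue), in tumors (red, upper point of each row) and in peri-tumor tissue (blue, lower point). Points are edgeR estimates from 4 and 4 libraries, bars are standard errors and filled points have an adjusted p under 0.05, which holds for Col18a1, Thbs1 and Tnc in tumors and for Lamb1, Col5a3 and Col27a1 in peri-tumor tissue.

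In peri-tumor tissue the laminin chain Lamb1 and the fibrillar chain Col5a3 rose and Col27a1 fell with TCM. Lamb1 had 7.54, 7.15, 7.33 and 6.52 CPM in TCM against 3.25, 4.54, 3.37 and 5.65 CPM in control peri-tumor tissue, without overlap, and a log2 fold change of 0.76 ± 0.23 (adjusted p = 0.0363). The call was lost without any 1 of the TCM peri-tumor libraries and without control peri-tumor 1, 2 or 3, with adjusted p from 0.0101 to 0.102 over all alternatives. Col5a3, at 18.2 to 25.6 CPM in TCM and 2.96 to 14.4 CPM in control peri-tumor tissue, did not overlap either, and control peri-tumor 4 was the highest control library. With TCM it rose by 1.65 ± 0.53 (adjusted p = 0.0489) on the log2 scale, lost without any 1 library other than control tumors 1, 2 and 4 and control peri-tumor 4, with adjusted p from 0.000195 to 0.131 over all alternatives. Col27a1, at 7.03 to 9.91 CPM in TCM and 6.07 to 32.3 CPM in control peri-tumor tissue, overlapped through control peri-tumor 4, its lowest library. Its fall was -1.08 ± 0.33 (adjusted p = 0.0426), lost without any TCM peri-tumor library, TCM tumor 1 or 3, control tumor 1, 2 or 3 or control peri-tumor 1, 2 or 3, with adjusted p from 0.000968 to 0.173 over all alternatives. All 3 calls were also lost with no filter, and that of Col27a1 when the peri-tumor libraries were fitted alone.

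Leaving out single libraries left 0 called matrix genes in peri-tumor tissue without any 1 TCM peri-tumor library or without control peri-tumor 1, 2 or 3, left 1 without TCM tumor 1 or 3 or control tumor 3, and gave 6 without control peri-tumor 4. The share of all tested genes called was not counted for fits with libraries left out, so such counts cannot be judged against it. Without both libraries of control mouse 4 there were 10, of which 9 were higher with TCM: Lamb1 and Col5a3 as before, and Lama3, Col3a1, Col5a1, Fbn1, Col14a1, Loxl4 and Lox. Of these, Col3a1 had a log2 fold change of 0.91 (adjusted p = 0.0393), Col5a1 1.07 (adjusted p = 0.0124), Fbn1 1.01 (adjusted p = 0.0244) and Col14a1 0.62 (adjusted p = 0.0297), set against 0.37 ± 0.47 (adjusted p = 0.641) for Col3a1 and 0.49 ± 0.18 (adjusted p = 0.0792) for Col14a1 with all libraries. For Timp1, TCM peri-tumor tissue had 2 counts in all and control peri-tumor tissue 17, a summed ratio of 0.125 (95% counting interval 0.014 to 0.525) whose test gave an adjusted p of 0.133. For Lamb3, Loxl1 and Loxl4 the values were 0.54 ± 0.22 (adjusted p = 0.118), 1.36 ± 0.85 (adjusted p = 0.308) and 1.18 ± 0.56 (adjusted p = 0.172), and Lamb3 and Timp1 were, beside Lamb1 and Col5a3, the genes whose TCM and control libraries did not overlap.

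In tumors Col18a1 rose and Thbs1 and Tnc fell with TCM. Col18a1 had 723, 757, 1001 and 768 CPM in TCM against 585, 511, 559 and 463 CPM in control tumors, without overlap. It rose by 0.62 ± 0.17 (adjusted p = 0.0388) on the log2 scale. The call was lost without TCM tumor 3, without any 1 control tumor, without TCM peri-tumor 1 or 4 and with no filter, with adjusted p from 0.00502 to 0.127 over all alternatives. Thbs1 had 8.81 to 20.6 CPM in TCM and 16.6 to 151 CPM in control tumors, and TCM tumor 4 exceeded control tumor 3. Thbs1 fell, -2.28 ± 0.53 (adjusted p = 0.0197), or -1.30 without control tumor 4. That call was lost without TCM tumor 1, 2 or 3 and when the tumor libraries were fitted alone, with adjusted p from 0.000652 to 0.0651 over all alternatives. Tnc had 1.71 to 3.34 CPM in TCM and 3.41 to 34.0 CPM in control tumors. Tnc fell, -2.22 ± 0.63 (adjusted p = 0.0448), but -0.83 and not called without control tumor 4 (adjusted p = 0.229). The call was also lost without any 1 other library except control tumors 1 and 3, TCM peri-tumor 1 and control peri-tumor 4, with adjusted p from 0.00969 to 0.229 over all alternatives. Fitting the tumor libraries alone lost the call of Tnc too, and with no filter only 1 of the falls of Thbs1 and Tnc was called.

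No fibrillar collagen was called between TCM and control tumors at the adjusted threshold, where Col5a3 and Col5a2 had an unadjusted p under 0.05, and the sign of 4 turned without control tumor 4. TCM over control tumors gave log2 fold changes of -0.75 ± 0.59 (adjusted p = 0.463) for Col1a1, -0.59 ± 0.46 (adjusted p = 0.451) for Col1a2, -0.12 ± 0.45 (adjusted p = 0.897) for Col3a1 and -0.25 ± 0.44 (adjusted p = 0.774) for Col5a1, against 0.49, 0.23, 0.57 and 0.47 without control tumor 4. Col5a3 was an exception in level: TCM tumors had 6.20 to 13.3 CPM, against 1.01, 1.04 and 1.41 CPM in control tumors 1 to 3 and 7.16 CPM in control tumor 4. Its log2 fold change was 1.84 ± 0.56 (adjusted p = 0.0585), and 3.06 without control tumor 4 (adjusted p = 0.00299). Timp1 had a log2 fold change of -1.77 ± 0.56 (adjusted p = 0.0659), called by DESeq2 (-1.78, adjusted p = 0.045) and without TCM tumor 1 (-2.50, adjusted p = 0.0288). Without both libraries of control mouse 4 there were 6 calls in tumors, Col18a1, Col5a3, Col6a1 and Col16a1 higher and Thbs1 and Dcn lower with TCM, and leaving out single libraries gave 0 (TCM tumor 3), 1 (TCM tumor 2, control tumor 2 or TCM peri-tumor 4) or 2 to 4. For these fits too the share of all tested genes called was not counted.

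Among basement membrane genes in tumors, Lama5 had -0.68 ± 0.26 (adjusted p = 0.127), Lama3 0.81 ± 0.43 (adjusted p = 0.256) and Lamc1 -0.14 ± 0.20 (adjusted p = 0.713) as log2 fold changes with TCM. Without TCM tumor 4, the highest of the TCM tumors in Lama5, that gene was called lower (-0.99, adjusted p = 0.0166). For Col4a1 and Col4a2 they were 0.29 ± 0.31 (adjusted p = 0.612) and 0.23 ± 0.31 (adjusted p = 0.686). In the other classes, Dcn had -0.58 ± 0.21 (adjusted p = 0.102), Loxl3 -0.72 ± 0.27 (adjusted p = 0.115), Col5a2 -0.87 ± 0.35 (adjusted p = 0.137) and Col13a1 1.18 ± 0.48 (adjusted p = 0.141). Bgn had -0.30 ± 0.13 (adjusted p = 0.162), Postn -0.93 ± 0.41 (adjusted p = 0.172), Col12a1 -1.12 ± 0.51 (adjusted p = 0.189) and Fn1 -0.35 ± 0.17 (adjusted p = 0.204). Without TCM tumor 4 Col13a1 was called (1.54, adjusted p = 0.0257), and Dcn was called without TCM tumor 1 (-0.77, adjusted p = 0.0367) or control tumor 4 (-0.70, adjusted p = 0.0476). The 4 TCM tumors lay under all 4 control tumors in Fn1 and Tnc, and above them in Lama3 and Col18a1.

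The difference of the tumor effect between TCM and control mice was called for 0 of the 49 genes by edgeR, where 1.11% of all tested genes were called, 0.706% higher and 0.404% lower. At an unadjusted p under 0.05 there were 8, and the share of all tested genes under that limit was not counted. DESeq2 also called 0 of the 48 it gave a value for. The median difference was -0.35 over the matrix genes and 0.03 over all tested genes. The 6 genes with the lowest p were Col27a1 with a difference of 1.33 ± 0.48 (adjusted p = 0.167), Col14a1 with -0.69 ± 0.26 (adjusted p = 0.176), Dcn with -0.79 ± 0.29 (adjusted p = 0.178), Col13a1 with 1.55 ± 0.64 (adjusted p = 0.223), Col18a1 with 0.57 ± 0.24 (adjusted p = 0.228) and Bgn with -0.40 ± 0.18 (adjusted p = 0.268). Without control peri-tumor 4 the difference of Col27a1 was called (1.61, adjusted p = 0.0144), and without both libraries of control mouse 4 it was the only call (1.78, adjusted p = 0.0126).

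Genes around the matrix genes were counted in 5 lists. Of all tested genes, 32.9% were called between tumor and peri-tumor tissue in TCM mice, 43.2% in control mice, and with TCM 14.1% in peri-tumor tissue and 7.28% in tumors. Of the partners that join basement membranes (13 of 17 tested), 6 rose and 2 fell in tumors of both TCM and control mice (61.5% each). Nid1, nidogen-1, which bridges laminin and type IV collagen, rose by 3.41 ± 0.36 (adjusted p = 6.34e-06) in TCM mice and by 3.11 ± 0.36 (adjusted p = 5.86e-06) in control mice. Hspg2, perlecan, rose by 1.21 ± 0.28 (adjusted p = 0.00354) in TCM mice and by 1.40 ± 0.28 (adjusted p = 0.000861) in control mice. Smoc2 rose by 2.83 ± 0.42 (adjusted p = 0.000104) in TCM mice and by 2.08 ± 0.41 (adjusted p = 0.000771) in control mice, and Agrn, agrin, rose by 0.40 ± 0.08 (adjusted p = 0.00183) in TCM mice and by 0.30 ± 0.08 (adjusted p = 0.00889) in control mice. Fras1, a protein of epithelial basement membranes, had falls of -1.08 ± 0.29 (adjusted p = 0.00835) in TCM mice and -2.20 ± 0.31 (adjusted p = 3.78e-05) in control mice. Between TCM and control tumors Nid2 (0.95 ± 0.23, adjusted p = 0.0239) and Fras1 (1.32 ± 0.31, adjusted p = 0.0208) rose with TCM.

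Of the genes that fold, modify and trim collagen (24 of 27 tested), 9 rose and 1 fell in TCM mice (41.7%), and 10 rose and 3 fell in control mice (54.2%). Adamts14, which cleaves the amino-terminal propeptide of fibrillar procollagen, rose by 4.16 ± 0.33 (adjusted p = 4.96e-07) in TCM mice and by 4.32 ± 0.34 (adjusted p = 1.85e-07) in control mice. P3h1 and Crtap, partners in prolyl 3-hydroxylation, rose by 0.94 ± 0.14 (adjusted p = 0.000149) and 1.03 ± 0.21 (adjusted p = 0.00137) in TCM mice and by 0.99 ± 0.14 (adjusted p = 4.67e-05) and 1.28 ± 0.21 (adjusted p = 0.000137) in control mice. In peri-tumor tissue 5 genes of the list (20.8%) fell and none rose with TCM, among them the lysyl hydroxylases Plod1 (-0.59 ± 0.12, adjusted p = 0.00679) and Plod3 (-0.34 ± 0.10, adjusted p = 0.0278) and the prolyl hydroxylase subunits P3h2 (-1.16 ± 0.29, adjusted p = 0.0176) and P4ha2 (-1.04 ± 0.28, adjusted p = 0.0245). In tumors P3h2 alone fell, -1.02 ± 0.28 (adjusted p = 0.041).

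Of the matrix proteases (29 of 35 tested), 14 rose and none fell in TCM mice (48.3%), and 19 rose and 4 fell in control mice (79.3%). Adamts12 rose by 4.38 ± 0.65 (adjusted p = 0.000113) in TCM mice, or 5.15 without TCM peri-tumor 4, and by 4.06 ± 0.56 (adjusted p = 3.25e-05) in control mice, and Plat, tissue plasminogen activator, by 3.26 ± 0.66 (adjusted p = 0.00143) in TCM mice and by 5.24 ± 0.70 (adjusted p = 2.41e-05) in control mice. Plat was at 2.61 without TCM tumor 4 and 4.21 without TCM peri-tumor 3 in TCM mice, and at 5.95 without control peri-tumor 4 in control mice. Mmp14, a membrane-bound collagenase, rose by 0.95 ± 0.15 (adjusted p = 0.000203) in TCM mice and by 0.77 ± 0.15 (adjusted p = 0.000708) in control mice. Mmp12, the macrophage elastase, rose by 4.12 ± 0.73 (adjusted p = 0.000489) in TCM mice and by 3.92 ± 0.60 (adjusted p = 8.46e-05) in control mice, or 3.07 without control tumor 4. In peri-tumor tissue 1 rose and 3 fell with TCM (13.8%): Adamts1 (0.54 ± 0.14, adjusted p = 0.023), Mmp19 (-0.59 ± 0.12, adjusted p = 0.00642), Mmp14 (-0.49 ± 0.15, adjusted p = 0.0417) and Ctsl (-0.44 ± 0.14, adjusted p = 0.0479).

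Of the matrix receptors (24 of 27 tested), 10 rose and 1 fell in TCM mice (45.8%), and 12 rose and 2 fell in control mice (58.3%). Ddr1, a collagen receptor kinase, rose by 4.07 ± 0.26 (adjusted p = 8.06e-08) in TCM mice and by 4.13 ± 0.25 (adjusted p = 3.02e-08) in control mice. Itga2, the alpha chain of a collagen-binding integrin, rose by 5.59 ± 0.58 (adjusted p = 5.26e-06) in TCM mice, or 7.79 without TCM peri-tumor 3, and by 6.87 ± 0.61 (adjusted p = 5.75e-07) in control mice. Itga6 and Itga3, alpha chains of laminin-binding integrins, rose by 3.16 ± 0.38 (adjusted p = 1.76e-05) and 1.97 ± 0.30 (adjusted p = 0.00014) in TCM mice and by 4.01 ± 0.39 (adjusted p = 1.22e-06) and 3.12 ± 0.31 (adjusted p = 1.55e-06) in control mice. Between TCM and control tumors Itga3 (-1.03 ± 0.28, adjusted p = 0.0386) and Ddr1 (-0.75 ± 0.21, adjusted p = 0.0393) fell with TCM, and in peri-tumor tissue 4 receptors fell (16.7%, near the share of all tested genes), with Sdc3 at -1.35 ± 0.20 (adjusted p = 0.000903) and Cd44 at -1.45 ± 0.45 (adjusted p = 0.0433).

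Of 25 genes of TGF-beta signaling and its targets, 10 rose and none fell in TCM mice (40.0%), and 12 rose and none fell in control mice (48.0%). Tgfbr2, the type II receptor, rose by 1.46 ± 0.16 (adjusted p = 9.17e-06) in TCM mice and by 2.10 ± 0.16 (adjusted p = 1.85e-07) in control mice. The ligand Tgfb2 rose by 3.37 ± 0.57 (adjusted p = 0.000323) in TCM mice and by 3.65 ± 0.57 (adjusted p = 0.000106) in control mice. With TCM, 3 of the 25 (12%) fell in tumors, Tgfbr1 (-0.61 ± 0.09, adjusted p = 0.00186), Tgfbi (-0.94 ± 0.17, adjusted p = 0.00686) and Tgfbr2 (-0.66 ± 0.16, adjusted p = 0.0229), and 4 (16%) fell in peri-tumor tissue, Tgfbi (-0.77 ± 0.17, adjusted p = 0.0101), Tgfb1 (-0.65 ± 0.19, adjusted p = 0.034), Acvrl1 (-0.75 ± 0.23, adjusted p = 0.0445) and Nrros (-0.89 ± 0.28, adjusted p = 0.0463).

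Of 12 markers of Kupffer cells and macrophages, 3 rose and 2 fell in TCM mice (41.7%), and 4 rose and 7 fell in control mice (91.7%). Of all tested genes, 32.9% were called in TCM mice and 43.2% in control mice. In peri-tumor tissue 6 of the 12 (50%) fell with TCM, where Lamb1, Col5a3 and Col27a1 were called, and the part of these cells in those results was not tested. Clec4f, a Kupffer cell lectin, had -1.51 ± 0.34 (adjusted p = 0.00984) there and Cd5l -1.83 ± 0.36 (adjusted p = 0.0048). In tumors 3 (25%) fell with TCM, among them Gpnmb (-3.49 ± 0.68, adjusted p = 0.00919) and Trem2 (-2.36 ± 0.52, adjusted p = 0.0152). Without control tumor 4 Gpnmb was at -2.55 and Trem2 at -1.52, without TCM tumor 2 Gpnmb was at -4.12, and Trem2 was not called when the tumor libraries were fitted alone (adjusted p = 0.0536). Of the calls with TCM named from the gene and marker lists, those of Plod1, Mmp19, Sdc3, Tgfbi, Clec4f and Cd5l in peri-tumor tissue and of Tgfbr1, Tgfbi and Gpnmb in tumors held under every alternative run. That of Trem2 held without any single library, and each of the others was lost without 1 or more single libraries, with adjusted p up to 0.136. The summed macrophage markers, in which Spp1 is also a bile duct marker, ran over 602 to 1558 CPM in TCM tumors, 1241 to 2585 CPM in control tumors, 342 to 374 CPM in TCM peri-tumor and 604 to 1209 CPM in control peri-tumor tissue. Spp1 made up most of the tumor sums, with 52903 counts over TCM tumors and 111013 over control tumors. It had 1767 counts over TCM peri-tumor and 2245 over control peri-tumor tissue. No other macrophage marker exceeded 5392 counts over TCM tumors or 6310 over control tumors. The tumor sums therefore do not give the direction of the other markers. Of 11 bile duct markers (7 tested) 3 rose in TCM mice (42.9%), and 4 rose and 1 fell in control mice (71.4%). Spp1 was at 4.81 ± 0.52 (adjusted p = 7.38e-06) in TCM mice and 5.58 ± 0.54 (adjusted p = 1.13e-06) in control mice. Bile duct markers summed to 453 to 1283 CPM in TCM tumors, 942 to 2271 CPM in control tumors, 54.0 to 82.7 CPM in TCM peri-tumor and 46.8 to 106.4 CPM in control peri-tumor tissue. Nearly all of the tumor sums was Spp1. No other bile duct marker exceeded 1260 counts over TCM tumors or 1637 over control tumors. The duct keratin Krt19 had 29 counts over TCM tumors, 8 over control tumors, 24 over TCM peri-tumor and 70 over control peri-tumor tissue. Of 12 hepatocyte markers 1 rose and 5 fell in TCM mice (50%), and 2 rose and 5 fell in control mice (58.3%). Of 8 mesothelial markers (3 tested) none was called in TCM mice, and 1 rose and 1 fell in control mice (66.7%). Of 9 platelet and red cell markers (8 tested) 1 fell in TCM mice (12.5%, under the share of all tested genes), and 1 rose and 3 fell in control mice (50%, near that share).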

How the data were processed

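Tumor and peri-tumor liver of 8 mice gave 16 libraries, made with a stranded mRNA kit from mirVana total RNA, per the labels' protocols. The deposited table holds whole-number counts per gene, made by the authors without scaling. The deposited FPKM values are those counts divided by gene length and library total, as a recomputation of 11980 genes showed (largest deviation 0.00576%). Builds mm9 and mm10 appear in the submitters' processing notes. Neither aligner, counter nor strand setting is given in the sources used here. Reads of genes that overlap on opposite strands may therefore not be told apart. Of the IDs in the table, 29 have no symbol.

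Counts were tested with edgeR 4.0.16 in R 4.3.3, using TMM factors, filterByExpr (count minimum 10) and 1 fit of 16 libraries with 4 group means. The quasi-likelihood F test was adjusted over 14865 genes by Benjamini-Hochberg, with calls under 0.05. SE was derived from the log2 fold change and F. The script was tested on simulated data. Counting intervals are exact, at 95%, and cover counting error only.

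The matrix genes, their classes and the other lists were chosen with earlier results of these data known. Values in every library are given for up to 3 genes of each class with the lowest p per comparison and at least 1 CPM in the higher group, and for Col1a1, Col1a2, Col3a1, Col4a1, Col4a2, Lamc1, Lama4, Lama5, Fn1, Sparc, Timp1 and Lox. For the difference of the tumor effect the rule took 6 genes, and for each other list up to 4 genes, by lowest p. Both tissues of a mouse share an animal code in the labels and are paired by it. With group means removed, these pairs correlated at 0.235, 0.0433, 0.0913 and 0.114 in TCM mice and at 0.155, 0.116, 0.0627 and 0.228 in control mice. The alternatives were RLE factors, DESeq2 1.42.0, no filter, at least 1 CPM in 4 libraries, a fit of the 2 compared groups alone, a block for the mouse or for the replicate number, each library left out, and control mouse 4 left out.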

Additional observations from a re-analysis of the deposited data

Results flagged for a closer look

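Single libraries stood apart from the other 3 of their group in 19 of 196 sets of 4 values, by Dixon's gap test at the 95% level. Chance gives about 1 in 20 for independent values with a normal spread. Values of genes in the same libraries are not independent, so 19 of 196 cannot be judged against that rate. Control tumor 4 was the high library in 9 of them, 4 of them fibrillar collagens. It had 140.1 CPM of Col1a1 against 14.1 to 29.1 CPM in the other control tumors, and 109.5 CPM of Col1a2 against 21.2 to 35.8 CPM. Of the type V chains, Col5a1 had 28.3 CPM against 5.82 to 9.58 CPM, and Col5a3 had 7.16 CPM against 1.01 to 1.41 CPM. The lysyl oxidases Loxl2 and Lox had 34.9 and 5.19 CPM in it, against 10.4 to 13.5 CPM and 0.888 to 1.41 CPM. Fbn1 had 19.9 CPM against 7.27 to 8.94 CPM, Tnc 34.0 CPM against 3.41 to 5.58 CPM, and Col6a1 14.9 CPM against 1.52 to 3.30 CPM.

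Control peri-tumor 4, from the same mouse, was high for Col18a1 with 1187 CPM against 753.8 to 808.7 CPM in the other control peri-tumor libraries, and for Col12a1 with 2.23 CPM against 0.509 to 0.701 CPM. It also held 0.279 CPM of Lox (4 counts), where the other 3 were at 0. Control peri-tumor 1 was low for Lama4 with 1.97 CPM against 5.44 to 5.58 CPM, and for Col13a1 with 2.74 CPM against 5.44 to 5.99 CPM.

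Among TCM libraries, TCM tumor 3 was high for Col18a1 with 1001 CPM against 723.3 to 768.4 CPM in the other TCM tumors. TCM tumor 1 was low for Fbn1 with 7.23 CPM against 10.6 to 11.0 CPM. TCM peri-tumor 3 was high for Col4a3 with 3.55 CPM against 0.397 to 0.895 CPM in the other TCM peri-tumor libraries, and for Thbs1 with 2.04 CPM against 0.793 to 0.959 CPM. TCM peri-tumor 2 was high for Col6a1 with 4.72 CPM against 3.40 to 3.58 CPM.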

How the results depend on the processing

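None of the log2 fold changes called for the matrix genes turned in sign under any alternative tried. Counts of called tumor effects stayed within 1.5 times, while the values of some genes moved more, as printed with them: 25 to 33 genes were called in TCM mice with 1 library left out, against 30 with all, and 36 to 40 in control mice, against 39. DESeq2 called 31 and 40, RLE factors 30 and 39, no filter 28 and 38, and at least 1 CPM in 4 libraries 30 and 40. The 2 groups alone gave 32 and 38.

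The 3 genes called between TCM and control peri-tumor tissue became 0 with no filter and 10 without control mouse 4, and ranged from 0 to 6 with 1 library left out. They were 0 without any 1 of the TCM peri-tumor libraries or of control peri-tumor 1, 2 and 3, were 1 without TCM tumor 1 or 3 or control tumor 3, and were 6 without control peri-tumor 4. The 3 called between tumors became 1 with no filter, 1 with those groups alone, 5 with DESeq2 and 6 without control mouse 4, and ranged from 0 to 4 with 1 library left out: 0 without TCM tumor 3, and 1 without TCM tumor 2, control tumor 2 or TCM peri-tumor 4. The difference of the tumor effect, 0 calls in the full fit, had 1 without control mouse 4 (Col27a1, adjusted p = 0.0126) and 0 to 1 with 1 library left out, again Col27a1 without control peri-tumor 4 (adjusted p = 0.0144). The cause was not tested, and the share of all tested genes called was not counted under these alternatives.

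With the mouse as a block, 33 genes were called in TCM mice and 41 in control mice, and no tumor effect other than those printed with the results changed its call. Between treatments the replicate numbers name different mice, and same-numbered libraries correlated between -0.101 and 0.111. A block for that number gave 2 calls in peri-tumor tissue and 2 in tumors: Col27a1, Col18a1 and Tnc lost their calls (adjusted p = 0.0780, 0.0609 and 0.121) and Col5a3 gained one (2.17, adjusted p = 0.0216). Depth limits Lox and Timp1 most, since their peri-tumor levels rest on a few counts.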
